A study of Bos taurus with 6 samples.

Results

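The genes described here are 49 genes of DNA replication, the machinery that copies the genome in the S phase of the cell cycle. They were taken by symbol from the 23475 genes that the expression values cover, and all 49 were found. In the G1 phase the origin recognition complex, with CDC6 and CDT1, loads the MCM helicase on replication origins, and geminin (GMNN) blocks CDT1 once S phase has begun. CDC45 and the GINS complex then join MCM to form the active helicase, primase and the replicative polymerases copy the strands, and the PCNA ring holds the polymerases on the DNA. Many of these genes are transcribed in late G1 by E2F factors, so that their mRNA is widely used as a sign of cycling cells, and in fat tissue it is the preadipocytes that cycle, not the mature adipocytes.

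RNA was sequenced from bovine cells labelled adipocytes, which the methods describe as preadipocytes isolated with collagenase from the subcutaneous fat of calves and grown with fetal bovine serum. One group of 3 libraries came from cells given the bta-miR-484 agomir, a chemically modified RNA that raises the level of this miRNA, and the other group of 3 from cells given agomir NC, its negative control, hereafter the controls. Both groups were collected at 48 h, no genetic change is named for either, and the comparison asks what the added miRNA does to gene expression. The amount of agomir given for sequencing, the state of differentiation at collection and the calf behind each library are not stated, so p-values measure the spread between these libraries, which may be technical. Levels are in FPKM, a unit that scales fragments by transcript length and library size and so allows genes to be compared with each other. It carries no read numbers, which leaves the depth unknown and gives no counting error.

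Most markers of preadipocytes and fibroblasts were abundant, while those of mature adipocytes were low and some of them near 0. PDGFRA, a receptor of preadipocytes and fibroblasts, lay between 162 and 172 FPKM in the 6 libraries. COL3A1, a collagen gene, was the most abundant of the 10 preadipocyte or fibroblast markers, which summed to between 23220 and 24388 FPKM. ADIPOQ, which encodes adiponectin, did not exceed 0.197 FPKM, and LEP, which encodes leptin, did not exceed 0.0368 FPKM. Means of at least 0.5 FPKM were reached by 6 of the 10 adipocyte markers, namely LPL at 3.73, PPARG at 3.55, FABP4 at 2.39, CIDEA at 1.27, PLIN1 at 1.23 and CEBPA at 0.535 FPKM. The 10 adipocyte markers, led by LPL, summed to 12.8, 13.6 and 12.9 FPKM in agomir replicates 1 to 3 and to 13.9, 12.3 and 12.3 FPKM in the controls. CD34, a marker of preadipocytes, had a mean of 0.481 FPKM. DLK1, a preadipocyte gene, CLDN5, an endothelial gene, and C1QA, a macrophage gene, were listed at 0 in all libraries.

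Markers of other cell types were low, apart from a gene of contractile cells. The 7 endothelial markers, led by VWF, summed to between 3.93 and 4.83 FPKM, and the 7 macrophage or leukocyte markers, led by CD14, to between 7.09 and 8.39 FPKM. The 6 mural or smooth muscle markers summed to between 200.2 and 223 FPKM, of which ACTA2 made up between 196 and 220 FPKM. In each of the marker lists the sums of the groups overlapped.

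All 49 replication genes were expressed in every library and all passed the filter of a mean of at least 0.5 FPKM. Their median level was 5.73 FPKM, against 8.36 FPKM over the 12422 genes that passed. RPA1, the large subunit of the protein that coats single-stranded DNA, was the highest at a mean of 63.2 FPKM over the 6 libraries, and TYMS, which makes thymidylate for DNA, followed at 21.9 FPKM. At the other end stood ORC1, at 0.659 FPKM, and CDC6, at 0.521 FPKM, both of them needed to load the helicase. In all, 11 members lay above 10 FPKM, 33 between 1 and 10 FPKM and 5 under 1 FPKM. Levels thus spanned 121-fold.

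Differences between the groups were small, and no replication gene passed the adjusted threshold. Changes are given on the log2(FPKM + 0.5) scale, where 0.5 is a pseudocount that shrinks the changes of low genes. Adjusted over all genes, limma's p was under 0.05 for 0 of the 49 members and for 1 of the 12422 genes, TRAPPC4, which is 0.00805% of them. In limma the latter count was 0 when genes were not filtered, 0 with no variance trend, 0 without agomir replicate 1 or agomir NC replicate 2 and 2 without agomir NC replicate 3. At an unadjusted p under 0.05 in limma, 5 members were lower with the agomir, namely GINS2, E2F1, PCNA, LIG1 and CHAF1A, and 1 was higher, RPA3. That is 10.2% of members lower and 2.04% higher, where 4.31% of all genes were lower and 6.63% higher. The split over all genes depends on scaling, and with median-ratio scaling of the libraries it was 706 lower (5.68%) and 657 higher (5.29%), against 535 and 824 without it, while 6 members were lower and 1 higher. A lower level in bulk RNA can come from fewer cycling cells or from less RNA per cell, and these cannot be told apart.

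More members had a negative than a positive log2 fold change. Of the 49, 37 were negative, or 75.5%, against 44.9% of all genes tested. The median was -0.063, a fold of 0.958, and the median of all genes was 0.013. Single members ranged from -0.40 for GINS2 to 0.23 for RPA3. In 8 members no agomir library reached the lowest control, namely GINS2, E2F1, LIG1, CDC6, GINS4, MCM3, RFC2 and RPA1, which is 16.3% of them against a background of 6.36%. The reverse held in 1 member, POLD3, or 2.04% against a background of 10.9%. These backgrounds, too, depend on scaling. With median-ratio scaling they were 8.15% and 8.81%, against the same 16.3% and 2.04% of members. Negative log2 fold changes then made up 79.6% of members and 50.9% of all genes. The list as a whole was not tested, since its members are not replicates of the comparison.

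These counts moved with single libraries, and so did their distance from the background. The members lower at an unadjusted p under 0.05 in limma numbered 2 when agomir replicate 1 was left out (4.08%, against 4.0% of all genes), 2 for agomir replicate 3 (4.08%, against 3.62%), 1 for agomir NC replicate 1 (2.04%, against 4.80%) and 3 for agomir NC replicate 3 (6.12%, against 3.08%). They numbered 5 without agomir replicate 2 (10.2%, against 3.62%), of which 4 were the same genes as with all libraries, and 4 of 48 without agomir NC replicate 2 (8.33%, against 4.29%), of which 2 were the same. So without agomir replicate 1, agomir replicate 3 or agomir NC replicate 1 the share of lower members was near or under that of all genes. GINS2 was among them every time. The members higher numbered 0 without agomir replicate 3 or agomir NC replicate 2 and 1 in the other cases, where the gene was ORC6 without agomir replicate 2 and GMNN without agomir NC replicate 1, against 4.47% to 6.68% of all genes.

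Negative log2 fold changes numbered from 30, without agomir NC replicate 1 (61.2%, against 45% of all genes), to 38 of the 48 members then tested, without agomir NC replicate 2 (79.2%, against 47.0%). The sign changed with some library left out in 18 of the 49 members, namely ORC2, ORC3, ORC4, MCM4, MCM6, GINS3, CDC45, PRIM1, PRIM2, POLD2, POLE2, RFC1, RFC4, RFC5, RRM2, TYMS, DNMT1 and UHRF1. Groups that do not overlap are more frequent in any gene when a library is left out. Members whose agomir libraries all lay below the controls then numbered from 8 to 16, the latter without agomir replicate 2 (32.7%, against 10.8% of all genes), while the 8 without agomir NC replicate 1 were 16.3% against 11.9%. Those with the reverse order numbered 5 when agomir replicate 1 was left out (10.2%, against 17.5%), 3 for agomir replicate 2 (6.12%, against 14.8%), 1 for agomir replicate 3 (2.04%, against 16.5%), 4 for agomir NC replicate 1 (8.16%, against 17.5%), 3 for agomir NC replicate 2 (6.25%, against 15.6%) and 2 for agomir NC replicate 3 (4.08%, against 16.5%).

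The intervals bound the size of the changes gene by gene, on the scale of FPKM + 0.5. The median standard error of the log2 fold change was 0.0996 over the members, and the 95% interval lay within a 1.5-fold change in both directions for 43 of the 49. The other 6, ORC1, CDC6, GINS2, GINS4, FEN1 and E2F1, had intervals that reached a 1.5-fold decrease, and 0 reached a 1.5-fold increase. All 6 lie below the median level of the members, at means from 0.521 to 4.06 FPKM. Over all 12422 genes, 11545 had intervals within a 1.5-fold change, 484 reached a decrease and 429 an increase of that size. The pseudocount shrinks low genes, so for these the intervals do not bound the change in FPKM itself. With 0.1 in place of 0.5, POLE was at 0.24 instead of 0.17 and ORC1 at -0.43 instead of -0.26.

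**Figure D1:**
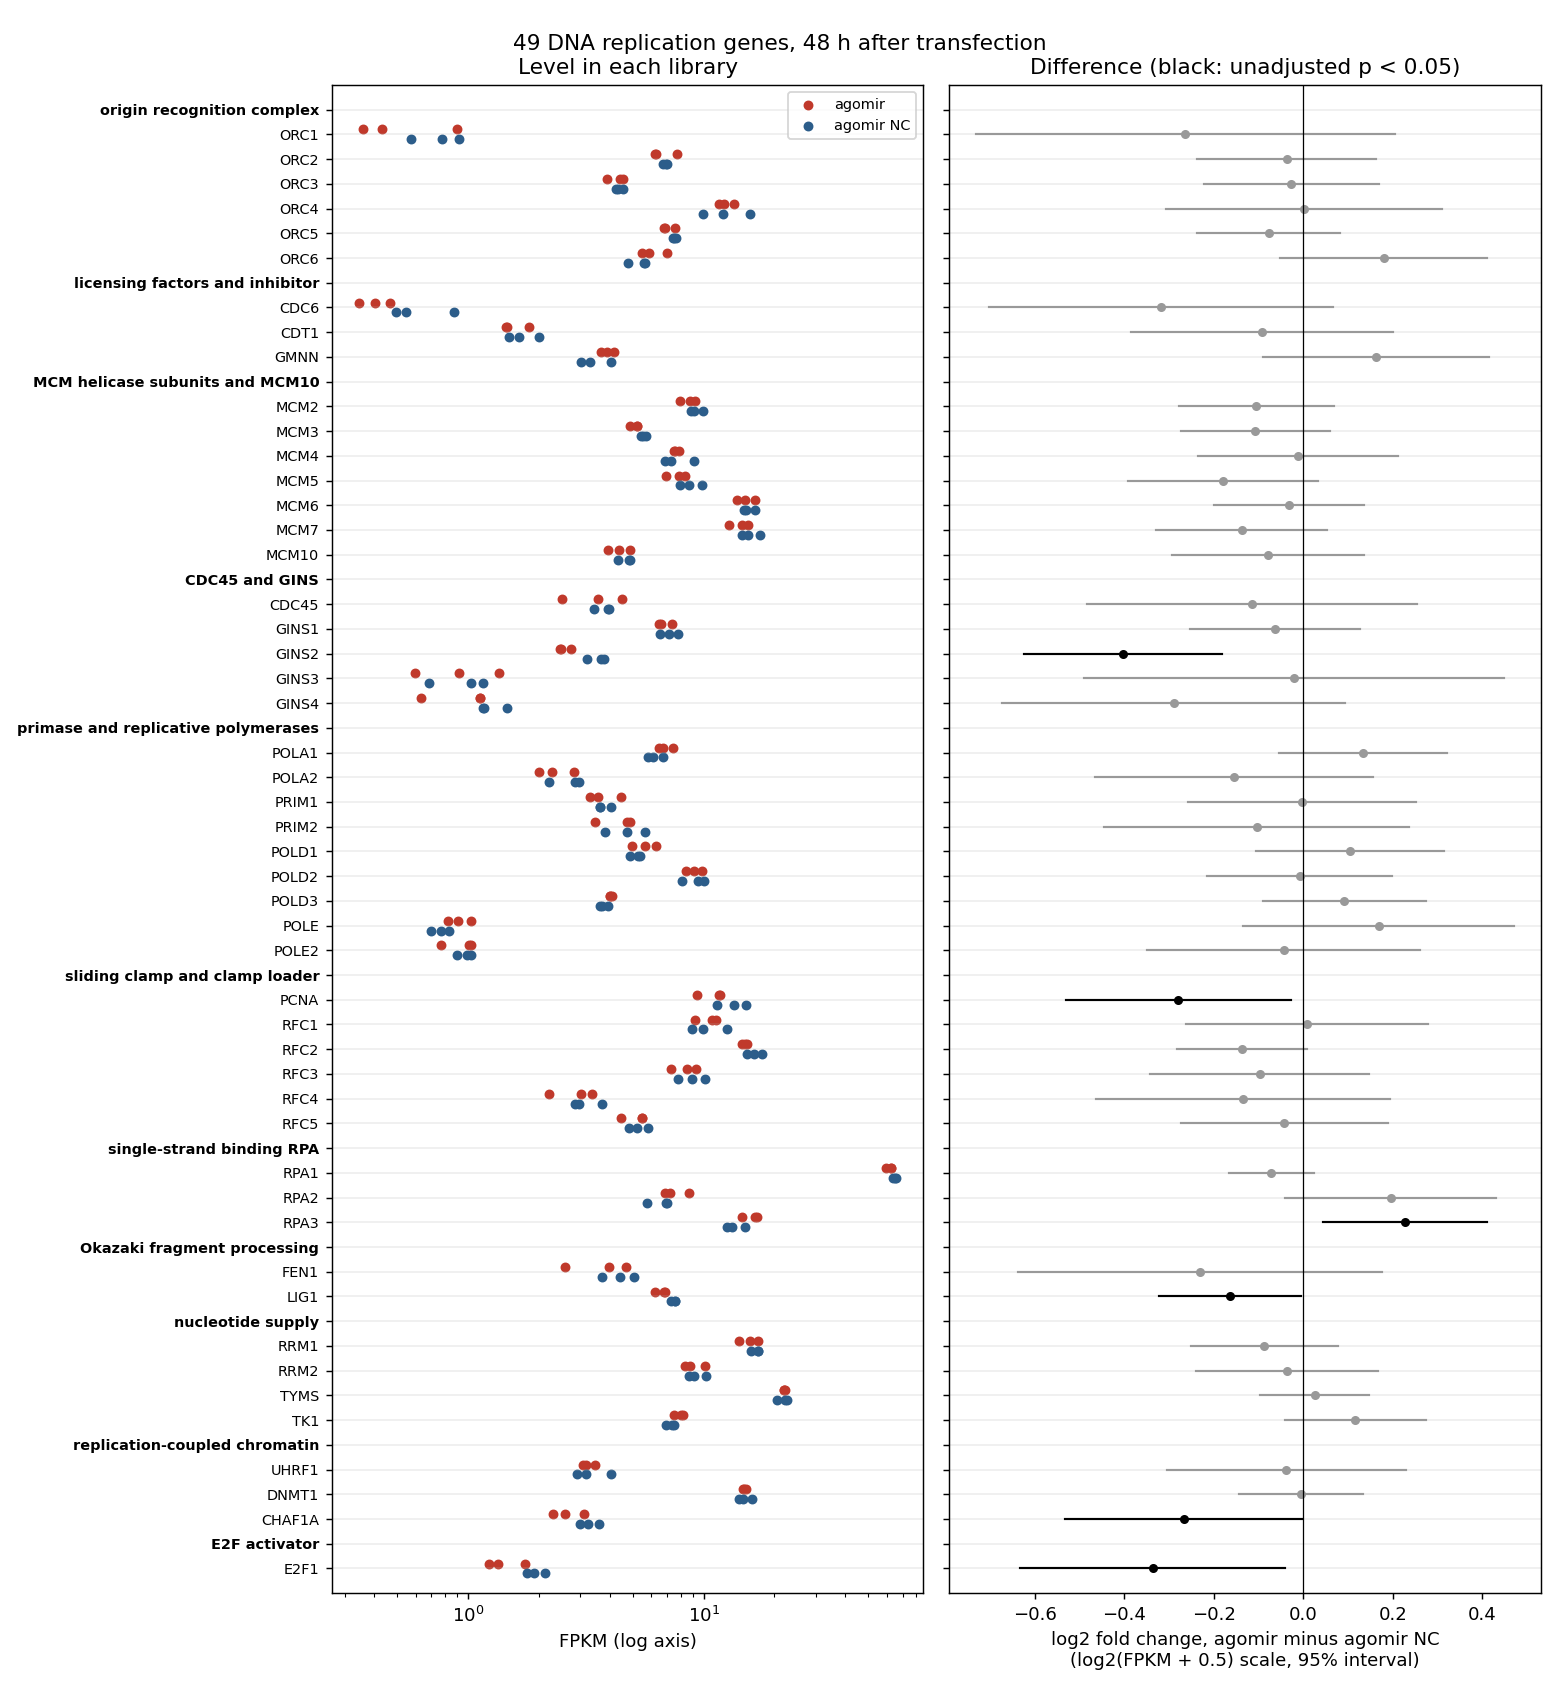
The left panel plots the FPKM of each of the 49 genes in each library on a log axis (red points, 3 agomir libraries; blue points, 3 agomir NC libraries), and the right panel the log2 fold change of agomir minus agomir NC with its 95% interval from limma, grouped by role. Black marks the 6 genes with an unadjusted p under 0.05, of which 5 lie left of 0, and the lowest is GINS2 at -0.40.

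PCNA, the sliding clamp, is the member that the study also assayed by PCR and western blot. Agomir replicates 1 to 3 held 11.6, 11.7 and 9.38 FPKM, and the controls 13.5, 11.5 and 15.2 FPKM. The groups overlapped, because agomir NC replicate 2 lay below agomir replicates 1 and 2. The average was 10.9 ± 1.33 FPKM (SD, n = 3) after the agomir against 13.4 ± 1.86 FPKM (SD, n = 3) in the controls. Its log2 fold change was -0.28 with a standard error of 0.11, which is a fold of 0.824 with a 95% interval from 0.692 to 0.981. The unadjusted p was 0.0333 in limma and the adjusted p 0.412, while an exact two-sided permutation test over the 20 labelings gave 0.3, where 0.1 is the smallest value possible. Without agomir replicate 3 limma's unadjusted p was 0.132, without agomir NC replicate 1 it was 0.0765, and without agomir NC replicate 3 it was 0.135. It was 0.0624 in limma when genes were not filtered and 0.0632 with no variance trend.

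CDK2, the kinase that works with cyclin E and cyclin A at the start of S phase, was another proliferation gene that the study assayed. For both PCNA and CDK2 the study reported less mRNA by PCR and less protein by western blot with the agomir. The agomir libraries held 4.75, 4.90 and 5.40 FPKM and the controls 4.55, 5.65 and 4.04 FPKM, so the former lay inside the range of the latter. Its log2 fold change was 0.082, with a standard error of 0.12 (limma, adjusted p 0.838), and ranged from -0.017 without agomir NC replicate 3 to 0.20 without agomir NC replicate 2. The primers with which the study measured both genes by PCR are shown because they set which stretch of each transcript that separate readout sees. Their positions in the genome were not determined here.
PCNA forward: tccagaacaagagtatagc
PCNA reverse: tacaacagcatctccaat
CDK2 forward: tttgctgagatggtgacccg
CDK2 reverse: taactcctggccaaaccacc

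The clamp is loaded by the RFC complex of 5 subunits, of which none was under an unadjusted p of 0.05 with all libraries and without further scaling. RFC2 came nearest, with 15.0, 15.3 and 14.5 FPKM after the agomir and 16.4, 15.4 and 17.7 FPKM in the controls. The groups were parted only by the narrow gap between 15.3 and 15.4 FPKM, and the log2 fold change was -0.14, with a standard error of 0.065 and an unadjusted p of 0.0615 in limma. For RFC2 limma gave an unadjusted p of 0.0336 with median-ratio scaling, 0.0259 with quantile normalization and 0.0203 without agomir NC replicate 2, but the log2 fold change was -0.085 without agomir NC replicate 3. RFC1, RFC3, RFC4 and RFC5 had log2 fold changes between -0.13 and 0.0076, all with overlapping groups. That of RFC1 turned to -0.0082 with median-ratio scaling and -0.014 with quantile normalization, and without a library it reached -0.093 (agomir NC replicate 1) and 0.14 (agomir NC replicate 3). That of RFC4 was 0.013 without agomir replicate 1 and -0.24 without agomir replicate 2. For PCNA, RFC1, RFC2, RFC3 and RFC4 the highest of the 6 libraries was agomir NC replicate 3, and the summed level of PCNA and its loader was 64.6 FPKM there, against 48.9 to 56.5 FPKM in the other libraries. Over all genes tested, agomir NC replicate 3 was the highest library in 19.4%. Its sum over all genes was 379361 FPKM, against 365977 to 369489 FPKM in the other libraries.

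At the origins, none of the 6 subunits of the recognition complex was under an unadjusted p of 0.05 with all libraries, and their log2 fold changes ran from -0.26 to 0.18. ORC1, the subunit whose level follows the cell cycle, was the most distant from 0, with 0.357, 0.902 and 0.433 FPKM after the agomir and 0.915, 0.573 and 0.777 FPKM in the controls. Its groups overlapped through agomir replicate 2, and its log2 fold change of -0.26 had a standard error of 0.21. For ORC1 that value was -0.48 without agomir replicate 2, at an unadjusted p of 0.0317 in limma, -0.12 without agomir replicate 1, -0.17 without agomir NC replicate 1 and -0.43 with a pseudocount of 0.1. ORC4, the most abundant subunit, had 13.4, 11.7 and 12.3 FPKM against 9.94, 12.1 and 15.8 FPKM. The controls of ORC4 spanned all its agomir values, and its log2 fold change of 0.0017, with a standard error of 0.14, turned to -0.014 with median-ratio scaling and to -0.023 with quantile normalization, and ran from -0.15 without agomir NC replicate 1 to 0.17 without agomir NC replicate 3. ORC2, ORC3, ORC5 and ORC6 lay between 4.33 and 7.30 FPKM on average, each with overlapping groups, and ORC6 had an unadjusted p of 0.0495 in limma without agomir replicate 2. The log2 fold change of ORC6 was 0.18, and 0.25 in that case. It was 0.086 without agomir replicate 3 and 0.11 without agomir NC replicate 2.

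Among the licensing factors, CDC6, the ATPase that helps to bring MCM to the origin, had 0.344, 0.403 and 0.467 FPKM after the agomir and 0.497, 0.869 and 0.546 FPKM in the controls. All its agomir values were below all its control values, at levels under 1 FPKM throughout. The log2 fold change was -0.32, with a standard error of 0.17 and, in limma, an unadjusted p of 0.0952, and the exact permutation test, two-sided, gave its minimum of 0.1. The size of this value depends on the pseudocount, since CDC6 was at -0.52 with 0.1 in place of 0.5, and the ratio of its mean FPKM was 0.635. Its unadjusted p in limma was 0.0419 with no variance trend, and without agomir NC replicate 2 it did not pass the filter. GMNN, the inhibitor of CDT1, had 3.65, 4.18 and 3.88 FPKM against 4.05, 3.30 and 3.01 FPKM, so that 1 control lay within the agomir range. CDT1 averaged 1.58 ± 0.201 FPKM (SD, n = 3) after the agomir and 1.72 ± 0.252 FPKM (SD, n = 3) in the controls. The log2 fold changes of GMNN and CDT1 were 0.16 and -0.092, neither under an unadjusted p of 0.05 with all libraries. Without agomir NC replicate 1 GMNN was at 0.27, with an unadjusted p of 0.0328 in limma, and CDT1 at -0.0038 (-0.17 without agomir replicate 2), while GMNN was at 0.081 without agomir NC replicate 3.

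The MCM helicase genes differed by small amounts. All 7 genes, the 6 subunits of the ring and MCM10, which helps to activate it, had negative log2 fold changes, between -0.18 and -0.011 with all libraries, where none was under an unadjusted p of 0.05. The sign depended on single libraries in MCM4, at 0.10 with agomir NC replicate 1 left out and 0.0047 with agomir replicate 1 left out, against -0.089 with agomir NC replicate 3 left out, and in MCM6, at 0.026 with agomir replicate 2 left out and 0.012 with agomir NC replicate 1 left out, against -0.096 with agomir replicate 3 left out. MCM5 was the furthest from 0, with 6.95, 8.36 and 7.88 FPKM after the agomir and 8.69, 7.96 and 9.85 FPKM in the controls, which overlap. Its log2 fold change was -0.18, with a standard error of 0.095 and an unadjusted p of 0.0882 in limma. For MCM5 limma gave -0.25 without agomir NC replicate 2, at an unadjusted p of 0.0341, against -0.11 without agomir replicate 1 and -0.10 without agomir NC replicate 3. MCM3 had parted groups, with 5.23, 4.89 and 5.22 FPKM against 5.40, 5.69 and 5.53 FPKM. MCM6, the most abundant, had 15.0, 13.9 and 16.6 FPKM against 16.5, 14.8 and 15.2 FPKM, and its groups overlapped.

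Summed over MCM2 to MCM7, the libraries did not separate by group. The sums were 55.4, 58.1 and 62.2 FPKM after the agomir and 67.0, 59.2 and 62.0 FPKM in the controls. Agomir NC replicate 1 was the highest and agomir replicate 1 the lowest, whereas agomir replicate 3 exceeded agomir NC replicates 2 and 3. The subunits of the ring, which are equal in number in the protein, differed in mean level from 5.33 FPKM for MCM3 to 15.3 FPKM for MCM6.

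GINS2, a subunit of the GINS complex that holds CDC45 and MCM together, had the lowest p-value of the replication genes. It was listed at 2.73, 2.46 and 2.49 FPKM after the agomir and at 3.19, 3.80 and 3.67 FPKM in the controls. The groups were parted by a gap wider than the range of the agomir libraries. The average was 2.56 ± 0.144 FPKM (SD, n = 3) against 3.55 ± 0.319 FPKM (SD, n = 3) in the controls. Its log2 fold change was -0.40 with a standard error of 0.099, which is a fold of 0.757 with a 95% interval from 0.649 to 0.882. In limma, 0.00249 before adjustment became 0.261 after adjustment over all genes, and the exact permutation test, two-sided, gave its minimum of 0.1. Dropping any 1 library kept the log2 fold change of GINS2 between -0.47 and -0.36, and its unadjusted p in limma did not exceed 0.0126.

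The other genes of the same complex were further inside the spread between replicates. GINS4 had 0.631, 1.13 and 1.13 FPKM after the agomir and 1.16, 1.17 and 1.47 FPKM in the controls, which do not overlap, although 2 of the agomir libraries lay close to the controls. Its log2 fold change of -0.29 was -0.11 without agomir replicate 1. GINS1, the most abundant subunit, had 6.62, 7.36 and 6.48 FPKM against 7.76, 6.55 and 7.13 FPKM, and its log2 fold change was -0.063 with a standard error of 0.085, with -0.0051 without agomir NC replicate 1 and -0.12 without agomir NC replicate 2. GINS3 had a log2 fold change of -0.021, with a standard error of 0.21, overlapping groups and values from -0.21 without agomir replicate 2 to 0.17 without agomir replicate 1. CDC45, which binds the complex, had a log2 fold change of -0.11, with a standard error of 0.16, and its agomir libraries reached from 2.51 to 4.51 FPKM, beyond the controls on both sides. That of CDC45 was -0.29 without agomir replicate 2 and 0.080 without agomir replicate 3.

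Primase and the polymerases, which make up 9 of the members, showed no common direction. There were 5 negative and 4 positive log2 fold changes, with a median of -0.0024, and none was under an unadjusted p of 0.05. POLE, the catalytic subunit of the leading-strand polymerase, had the largest, with 0.821, 0.911 and 1.03 FPKM after the agomir and 0.832, 0.694 and 0.767 FPKM in the controls. The groups overlapped, since 0.821 FPKM lay below the highest control, and the log2 fold change was 0.17 with a standard error of 0.13, and 0.11 without agomir replicate 3. POLD2, the most abundant, had 9.07, 8.46 and 9.90 FPKM against 10.0, 9.51 and 8.08 FPKM, with a log2 fold change of -0.0076 that was 0.055 without agomir NC replicate 1 and -0.094 without agomir NC replicate 3. POLD3, another subunit of polymerase delta, was the member with all agomir libraries above the controls, with 4.01, 4.07 and 4.02 FPKM against 3.62, 3.70 and 3.93 FPKM. The log2 fold change of POLD3 was 0.092, with a standard error of 0.081 and an unadjusted p of 0.285 in limma. POLA1, POLA2, PRIM1, PRIM2, POLD1 and POLE2 lay between -0.15 and 0.13. With a library left out, POLA1 ran from 0.081 to 0.19, POLA2 from -0.26 to -0.061 and PRIM1 from -0.12 to 0.077. In the same way PRIM2 ran from -0.23 to 0.038, POLD1 from 0.032 to 0.18 and POLE2 from -0.091 to 0.044.

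The subunits of RPA, which work as a trimer, did not share a direction. RPA1 had 59.6, 62.7 and 62.6 FPKM after the agomir and 63.6, 64.8 and 65.9 FPKM in the controls, parted groups that differed by a log2 fold change of -0.071 with a standard error of 0.042, or -0.047 without agomir replicate 1. RPA3, the smallest subunit, had 14.6, 16.6 and 16.8 FPKM after the agomir and 12.5, 13.3 and 15.1 FPKM in the controls. Here agomir NC replicate 3 lay above agomir replicate 1, and the averages were 16.0 ± 1.22 FPKM (SD, n = 3) and 13.6 ± 1.30 FPKM (SD, n = 3). The log2 fold change of RPA3 was 0.23, with a standard error of 0.082, an unadjusted p of 0.0206 and, after adjustment by limma, 0.381. RPA2 had a log2 fold change of 0.20, with a standard error of 0.11 and an unadjusted p of 0.0930 in limma, and was at 0.10 without agomir replicate 2. For RPA3, limma's unadjusted p was 0.0658 when agomir replicate 2 was left out, 0.0724 for agomir replicate 3, 0.0806 for agomir NC replicate 1 and 0.0553 for agomir NC replicate 2.

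In the RefSeq table of ARS-UCD2.0, a later assembly than the ARS-UCD1.2 named for these values, 21 of the 49 members overlap another gene and 9 a protein-coding one. Whether the estimates used strand is not given in the sources used here, so members with an expressed partner are uncertain to the extent that its reads were included. KSR2, which overlaps RFC5, was at 0 in all libraries, THEMIS2, which overlaps RPA2, did not exceed 0.0136 FPKM, and ARRDC5, which overlaps UHRF1, did not exceed 0.203 FPKM. EIF4A2, which overlaps RFC4, averaged 85.9 FPKM after the agomir and 87.2 FPKM in the controls, far above RFC4, at 3.01 FPKM over the 6 libraries. APRT, which overlaps CDT1, averaged 109 FPKM in both groups, far above CDT1. RPA3 overlaps UMAD1, which averaged 1.98 ± 0.274 FPKM (SD, n = 3) after the agomir and 2.30 ± 0.247 FPKM (SD, n = 3) in the controls, on the other side of 0 from RPA3. The remaining pairs are GINS1 with PCMTD2, FEN1 with TMEM258 and TYMS with ENOSF1. Of the 6 members under an unadjusted p of 0.05, RPA3 is the one in such a pair.

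The joining of lagging-strand fragments needs FEN1, which trims their flaps, and LIG1, the ligase that seals them. LIG1 had 6.22, 6.83 and 6.78 FPKM after the agomir and 7.55, 7.25 and 7.59 FPKM in the controls, and the groups did not overlap. Its averages were 6.61 ± 0.338 FPKM (SD, n = 3) and 7.46 ± 0.186 FPKM (SD, n = 3). The log2 fold change was -0.16, with a standard error of 0.071, an unadjusted p of 0.0438 and, after adjustment by limma, 0.442. With 1 library left out, limma's unadjusted p for LIG1 was 0.0475 without agomir replicate 2 and above 0.05 in the other cases, namely 0.147 without agomir replicate 1, 0.0624 without agomir replicate 3 and 0.0950, 0.0544 and 0.0958 without agomir NC replicates 1, 2 and 3. The log2 fold change of LIG1 then ran from -0.19, without agomir replicate 2, to -0.12, without agomir replicate 1. With the replicate block, limma's unadjusted p for LIG1 was 0.0729. FEN1 scattered more, with 3.96, 2.57 and 4.67 FPKM against 3.69, 4.40 and 5.08 FPKM. Its groups overlapped, and its log2 fold change of -0.23, with a standard error of 0.18, was -0.016 without agomir replicate 2, -0.39 without agomir replicate 3 and -0.13 without agomir NC replicate 3.

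Genes that supply deoxynucleotides differed little between the groups. TYMS had 22.0, 22.2 and 22.0 FPKM after the agomir and 22.5, 20.4 and 22.2 FPKM in the controls, which enclose the agomir values. For TYMS the log2 fold change was 0.025, with a 95% interval from -0.097 to 0.15, and it was -0.018 without agomir NC replicate 2 and 0.052 without agomir NC replicate 1. TK1, which salvages thymidine, had 8.20, 7.49 and 8.06 FPKM against 6.96, 7.50 and 7.33 FPKM, and its log2 fold change was 0.12 with a standard error of 0.070. In TK1 a single agomir library, replicate 2, reached down into the control range. RRM1 and RRM2, the subunits of ribonucleotide reductase, had log2 fold changes of -0.087 and -0.037. RRM1 ranged from -0.15 without agomir replicate 2 to -0.017 without agomir replicate 1, and RRM2 from -0.11 without agomir replicate 2 to 0.030 without agomir NC replicate 1.

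Of the genes that restore chromatin behind the fork, CHAF1A, a subunit of the histone chaperone CAF-1, had 2.30, 3.09 and 2.58 FPKM after the agomir and 3.24, 3.61 and 3.00 FPKM in the controls. The groups overlapped by agomir replicate 2 alone. The log2 fold change was -0.27, with a standard error of 0.12, an unadjusted p of 0.0483 and, after adjustment by limma, 0.452. For CHAF1A, limma's unadjusted p was 0.171 when agomir replicate 1 was left out, 0.102 for agomir replicate 3, 0.0841 for agomir NC replicate 1 and 0.157 for agomir NC replicate 2, and 0.0712 when genes were not filtered. The log2 fold change of CHAF1A with these libraries left out was -0.18, -0.25, -0.27 and -0.21 in turn. DNMT1, the maintenance DNA methyltransferase, had 15.1, 14.8 and 14.7 FPKM against 16.0, 14.1 and 14.7 FPKM, with a log2 fold change of -0.0054 that was 0.044 without agomir NC replicate 1 and -0.044 without agomir NC replicate 2. UHRF1, which guides DNMT1 to newly copied DNA, had a log2 fold change of -0.038, or from -0.13 without agomir NC replicate 2 to 0.082 without agomir NC replicate 1.

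E2F1, a transcription factor that activates many replication genes, had 1.35, 1.23 and 1.74 FPKM after the agomir and 1.91, 2.13 and 1.77 FPKM in the controls. The groups did not overlap, although agomir replicate 3 and agomir NC replicate 3 lay next to each other. The average was 1.44 ± 0.267 FPKM (SD, n = 3) against 1.94 ± 0.180 FPKM (SD, n = 3) in the controls. Its log2 fold change was -0.34 with a standard error of 0.13, which is a fold of 0.792 with a 95% interval from 0.645 to 0.973. In limma the unadjusted p was 0.0302 and the adjusted p 0.406. For E2F1 the former was 0.0797 when agomir replicate 1 was left out, 0.105 for agomir replicate 2, 0.0575 for agomir NC replicate 1 and 0.101 for agomir NC replicate 2, all in limma. The log2 fold change of E2F1 in these cases was -0.30, -0.26, -0.34 and -0.28 in turn.

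The 40 further genes of the fork and of origin control had a median log2 fold change of -0.012, with 22 negative (55.0%, against 44.9% of all genes) and 18 positive. At an unadjusted p under 0.05 in limma 3 were lower (7.50%, against 4.31% of all genes) and 1 higher (2.50%, against 6.63%), with 0 past the adjusted threshold. TIPIN, which stabilizes stalled forks, had 11.2, 11.5 and 11.0 FPKM after the agomir and 12.6, 12.7 and 13.4 FPKM in the controls, and its log2 fold change was -0.19 with a standard error of 0.059. RNASEH2A, a subunit of the enzyme that removes ribonucleotides from DNA, had a log2 fold change of -0.21 and ASF1B, a histone chaperone, one of -0.32. In these 3 genes the groups did not overlap. Over the list, groups did not overlap in 4 lower genes (10.0%, against 6.36% of all genes) and 3 higher ones (7.50%, against 10.9%). With each library left out in turn, limma's unadjusted p stayed under 0.05 for TIPIN in all 6 cases and for RNASEH2A and ASF1B in 3 each, and the log2 fold changes of the latter came down to -0.14, without agomir replicate 2, and -0.21, without agomir NC replicate 3. For ASF1B limma gave an unadjusted p of 0.0535 when genes were not filtered. TOP1, the topoisomerase that relaxes DNA ahead of the fork, was higher in each agomir library than in any control, with 46.3, 46.3 and 47.8 FPKM against 42.1, 42.7 and 44.3 FPKM, and its log2 fold change was 0.12 with a standard error of 0.044. For TOP1 limma's unadjusted p was 0.0862 without agomir replicate 3, 0.0667 without agomir NC replicate 1 and 0.0600 with no variance trend.

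Regulators of the passage from G1 to S had a median log2 fold change of 0.026 over the 28 of 30 that passed the filter, which E2F2 and E2F7 did not. At an unadjusted p under 0.05 in limma 1 was lower (3.57%, against 4.31% of all genes) and 3 higher (10.7%, against 6.63%), and 0 were past the adjusted threshold. CCND1, a cyclin of early G1, had 32.9, 38.6 and 34.8 FPKM after the agomir and 29.0, 30.1 and 25.7 FPKM in the controls, and its log2 fold change was 0.32 with a standard error of 0.075. CDK6, a kinase partner of CCND1, had 9.87, 10.9 and 10.5 FPKM against 8.75, 8.42 and 8.53 FPKM, and its log2 fold change was 0.27 with a standard error of 0.065. Both were higher in each agomir library than in any control. CDKN2B, an inhibitor of that kinase, had 11.9, 15.6 and 15.4 FPKM against 11.7, 9.97 and 12.3 FPKM, and agomir replicate 1 lay within the control range. CCND3, another D-type cyclin, had 14.2, 13.3 and 14.6 FPKM against 16.4, 14.9 and 16.1 FPKM, all agomir values below the controls. In this list groups did not overlap in 1 lower gene (3.57%, against 6.36% of all genes) and 2 higher ones (7.14%, against 10.9%). Over the 6 cases with a library left out, limma's unadjusted p was under 0.05 in all 6 for CCND1 and CDK6, in 3 for CDKN2B and in 2 for CCND3.

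The 26 mitosis genes, which act after replication, had a median log2 fold change of -0.047, with 18 negative (69.2%, against 44.9% of all genes) and 8 positive. At an unadjusted p under 0.05 in limma 2 were lower (7.69%, against 4.31% of all genes) and 1 higher (3.85%, against 6.63%), and 0 were past the adjusted threshold. MKI67, which encodes the proliferation antigen Ki-67, had 10.1, 11.6 and 11.8 FPKM after the agomir and 14.0, 11.9 and 9.37 FPKM in the controls. Its controls spanned the agomir values, and its log2 fold change of -0.059 was 0.071 without agomir NC replicate 1 and -0.21 without agomir NC replicate 3. AURKA, a kinase of the spindle poles, had 5.74, 6.68 and 6.23 FPKM against 4.95, 4.55 and 4.60 FPKM, parted groups with a log2 fold change of 0.37 and a standard error of 0.083. CCNB2, a mitotic cyclin, had a log2 fold change of -0.22 and UBE2C, which helps to degrade cyclins, one of -0.19, both with overlapping groups. Groups of this list did not overlap in 1 lower gene (3.85%, against 6.36% of all genes) and 1 higher one (3.85%, against 10.9%). UBE2C was at -0.10 without agomir NC replicate 1, where limma gave it an unadjusted p of 0.169. With a library left out that p was under 0.05 in 2 of 6 cases each for CCNB2 and UBE2C and in all 6 for AURKA, and for UBE2C limma gave 0.0611 when genes were not filtered and 0.0737 with no variance trend.

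Few of the cell type markers had an unadjusted p under 0.05 by limma, and 0 were past the adjusted threshold. Of the 8 preadipocyte or fibroblast markers tested 1 was lower, DCN, at -0.12, and of the 6 adipocyte markers tested 1 was lower, FABP4, at -0.49, and 1 was higher, PPARG, at 0.23, where 4.31% of all genes were lower and 6.63% higher. FABP4 was the 1 adipocyte marker of the 6 with a negative log2 fold change. DCN was at 0 with quantile normalization, and limma gave it an unadjusted p of 0.0909 when genes were not filtered and 0.0711 with no variance trend. With a library left out, limma's unadjusted p was under 0.05 in 4 of 6 cases for DCN and FABP4 and in 3 for PPARG. None of the 2 endothelial, 2 macrophage or leukocyte and 2 mural or smooth muscle markers tested was among them. Their part in the replication values was not tested.

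The ranges of the groups overlapped when the replication genes were read library by library. The median deviation of the 49 members from each gene's mean over the 6 libraries was -0.063, 0.033 and -0.018 in agomir replicates 1, 2 and 3 and 0.070, -0.041 and 0.031 in agomir NC replicates 1, 2 and 3, on the log2 scale. Agomir NC replicate 2 thus lay between agomir replicates 1 and 3, and agomir replicate 2 beside agomir NC replicate 3. Agomir replicate 1 held the lowest value of 16 of the 49 members, or 32.7%, where it was lowest in 15.2% of all genes. Agomir NC replicate 1 held the highest value of 14 members, or 28.6%, against 13.8% of all genes.

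In the mitosis genes, too, agomir NC replicate 1 was most often the highest library, for 16 of the 26 genes (61.5%, against 13.8% of all genes). Its median deviation there was 0.16. The lowest value was held by agomir NC replicate 2 in 9 genes and by agomir replicate 1 in 8, or 34.6% and 30.8%, where they were lowest in 21.4% and 15.2% of all genes, and their median deviations were -0.088 and -0.089, so that libraries of both groups lay at the low end. Agomir replicates 2 and 3 and agomir NC replicate 3 lay between 0.0063 and 0.026. Over all 12422 genes the same medians stayed between -0.016 and 0.021. The part of such differences between libraries in the counts of lower members was not tested.

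**Figure D2:**
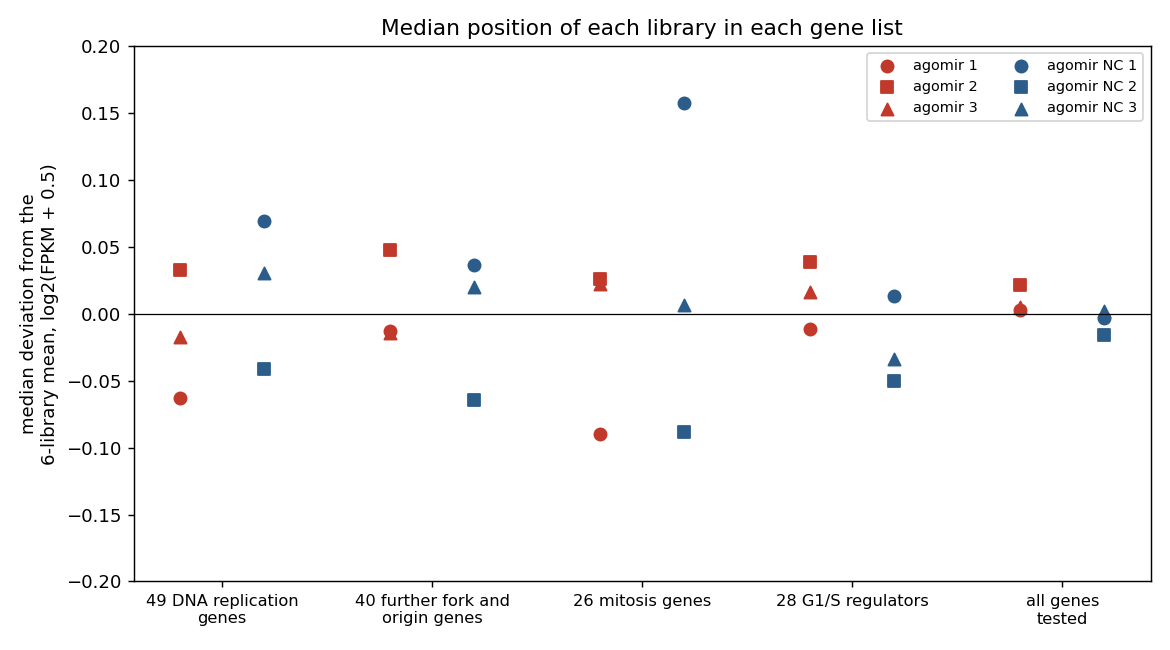
Each point is the median, over the genes of a list, of a library's deviation from the mean of the 6 libraries on the log2(FPKM + 0.5) scale (red, agomir; blue, agomir NC; the marker gives the replicate). In the 49 replication genes the agomir libraries lie between -0.063 and 0.033 and the agomir NC libraries between -0.041 and 0.070, so the groups overlap, and in the mitosis genes agomir NC replicate 1 stands apart at 0.16.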

How the data were processed

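RNA-seq was done on 3 libraries of cells given the bta-miR-484 agomir and 3 given agomir NC. The deposited values are FPKM, 1 for each gene and library, as the authors estimated them. The submitters' processing notes name fastp, HISAT2, StringTie and the build ARS-UCD1.2, without versions or settings. Low values did not fall into steps of whole reads (at most 8 of 2158 low genes shared a bin of 0.002 in the log2 ratio of a pair of libraries), so depth is unknown. The 12422 of 23475 genes whose mean over all libraries reached 0.5 FPKM were taken as log2(FPKM + 0.5) and compared with limma (version 3.58.1, R 4.3.3), two-sided, with a variance trend, no replicate term, and Benjamini-Hochberg adjustment over all of them. Intervals are pointwise 95% intervals of that fit. Single genes were also compared by an exact permutation test of mean FPKM. The 49 members were matched by symbol in the RefSeq table of ARS-UCD2.0, used only for overlapping genes.

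The members, lists and tests were chosen with earlier results of these data known. Described with every library were PCNA, members under an unadjusted p of 0.05, in each role the member with the largest change and the most abundant one, the 2 highest and 2 lowest members, CDK2 and MKI67. From each other list, up to 4 genes under an unadjusted p of 0.05 were named. Any other gene described, such as POLD3, MCM3, GINS4 or TRAPPC4, was picked after its values were seen. Alternatives were other pseudocounts (0.1 or 1), leaving out the filter or raising it to 1 FPKM, scaling by median ratios, quantile normalization, a fit with no trend, weights for libraries, replicate number as a block, and each library left out. A planned search of promoters was not run, because no promoter sequences were used here.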

Additional observations from a re-analysis of the deposited data

How the results depend on the processing

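The count of members past the adjusted threshold was 0 in all 15 alternatives, where limma gave between 1 and 6 members an unadjusted p under 0.05 on the lower side. The median log2 fold change of the members stayed negative, from -0.091 to -0.047 with 1 library left out. As a ratio of mean FPKM with nothing added, a choice made after seeing the data, it was -0.068, and that of PCNA -0.29. Members lower at an unadjusted p numbered 3 without a filter (6.12%, against 3.45% of all genes) and ranged from 1 to 5 with 1 library left out (2.04% to 10.2%, against 3.08% to 4.80% of all genes), and members higher from 0 to 1. With 1 library left out, members with groups that do not overlap ranged from 8 to 16 lower and from 1 to 5 higher, where over all genes the shares were 9.88% to 11.9% and 14.8% to 17.5%. With a mean of at least 1 FPKM, 7 of the 44 members tested were lower in this way (15.9%, against 6.38% of all genes). Over all genes, those past the adjusted threshold numbered 0 without a filter, 0 without the variance trend, 0 with the replicate block and from 0 to 2 with 1 library left out. At an unadjusted p under 0.05, limma then gave 638 lower and 966 higher genes without a filter, 489 and 760 without the trend and 522 and 738 with the block. Quantile normalization gave 629 lower and 696 higher genes at an unadjusted p in limma.

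The log2 fold change of PCNA stayed between -0.38, without agomir NC replicate 2, and -0.18, without agomir replicate 3. Of 536 values of the other genes named by rule, 519 kept their direction, 16 had the opposite one and 1 was 0, that of DCN with quantile normalization, where it had the same rank in each library. None of the 37 genes named by rule, which do not include TRAPPC4, passed the adjusted threshold in any setting, so for them that threshold says nothing of stability. At an unadjusted p of 0.05 in limma, 61 of 300 values of these genes that were under it as reported were no longer so, and 7 of 251 values of the others came under it. ORC4 turned to -0.014 with median-ratio scaling and -0.023 with quantile normalization. With 1 library left out, signs changed in ORC4 (from -0.15 to 0.17), MCM6 (from -0.096 to 0.026), POLD2 (from -0.094 to 0.055), DNMT1 (from -0.044 to 0.044), TYMS (from -0.018 to 0.052), CDK2 (from -0.017 to 0.20) and MKI67 (from -0.21 to 0.071). The cause was not tested. Once group means were subtracted, libraries with the same number had correlations of -0.051, 0.053 and 0.039 across genes. Libraries with different numbers were not compared in this way, so whether a number marks a shared culture or calf is not settled. With the replicate block, 4 members were lower (8.16%, against 4.20% of all genes) and 1 higher (2.04%, against 5.94%) at an unadjusted p, and LIG1 was at 0.0729 in limma. Without a known depth, the counting error of members under 1 FPKM cannot be given.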

Other observations

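Within each library, GMNN was related to CDT1, whose licensing activity its product blocks. The ratio of their FPKM was 2.51, 2.31 and 2.65 after the agomir and 2.03, 2.00 and 2.00 in the controls, so the groups did not overlap although those of each gene did. This pair was picked after its values were seen and was not tested. CDT1 overlaps APRT, which averaged 109 ± 3.81 FPKM (SD, n = 3) after the agomir and 109 ± 2.38 FPKM (SD, n = 3) in the controls. RPA3 over RPA1, also picked afterwards, was 0.245, 0.265 and 0.269 after the agomir and 0.197, 0.205 and 0.229 in the controls. CCND1 over CCND3, D-type cyclins whose log2 fold changes had opposite signs, was 2.32, 2.90 and 2.38 after the agomir and 1.77, 2.03 and 1.60 in the controls. This pair, too, was picked after its values were seen. Since CCND1 and CCND3 each had parted groups, in opposite directions, their ratio had to part as well and shows nothing further. CCND2, another D-type cyclin, had a log2 fold change of 0.026.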
